A study of Mus musculus with 12 samples.

Results

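The proteases that cut the extracellular matrix and the cell surface, and their TIMP inhibitors, were followed in mouse liver. They were taken as every gene of the array whose platform symbol starts with Mmp, Timp, Adam, Adamts or Adamtsl and a digit. That gave 77 of the 19084 named genes, of which 4 were Timp, 21 Mmp, 29 Adam, 18 Adamts and 5 Adamtsl genes. Each gene was read from its brightest probe. A study of fatty liver hybridised RNA of male C57BL/6 mice to 12 single-colour arrays, 3 in each of 4 groups. The PTFC group ate the high-fat diet (HFD, 36.1% fat with 2% cholesterol) for 24 weeks, and got the citrus flavonoid extract PTFC, 50 mg per kg daily by intragastric gavage, over the last 18 of these weeks. The HFD24 and HFD16 groups ate that diet with saline for 24 and 16 weeks, and the ND group ate a normal diet (12.3% fat) with saline for 24 weeks. Mice were 31 to 33 weeks old in PTFC and HFD24, 23 to 25 weeks in HFD16, 31 to 33 weeks for the first ND array and 30 to 32 weeks for the other ND arrays. Age and time on diet therefore cannot be told apart where HFD16 is compared.

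Matrix metalloproteinases (MMPs) are zinc enzymes that are made as inactive proenzymes and that cleave collagens, laminins, proteoglycans and many signalling proteins. TIMPs are small secreted proteins that plug the active site of MMPs and, to differing degrees, of ADAMs and ADAMTS enzymes. ADAMs are membrane proteins, some of which release growth factors, cytokines and receptors from the cell surface, while others lack the catalytic residues or are known mainly from testis. ADAMTS enzymes are secreted and cleave proteoglycans, procollagens or von Willebrand factor, and ADAMTS-like proteins share their ancillary domains without the protease domain. In injured liver, stellate cells and macrophages are known sources of several of these proteins, and a raised TIMP1 is a known companion of fibrosis.

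Hepatocyte markers were bright on all arrays, as the liver label would have it. A probe was present for 8 of 10 listed markers, none of these 8 was among the dimmest 25% of genes, and their mean log2 level was 17.38 to 17.54 in PTFC, 17.10 to 17.38 in HFD24, 17.14 to 17.31 in HFD16 and 17.31 to 17.42 in ND. The array medians of the deposited intensities were 248.9 to 407.8. Of the 77 genes, 32 had a mean level among the dimmest 25% of genes, 12 of 21 Mmp and 10 of 29 Adam genes among them, so that small differences in those are weakly measured. Intensities below are as deposited, in the order of the replicate numbers. Differences, standard errors (SE), overlap of arrays and the limma test refer to the quantile-normalized log2(intensity + 1) scale. The threshold was 0.05 on p-values adjusted over all 19084 genes (Benjamini-Hochberg), and a gene under it is said to have passed. The labels do not say that each array is a separate mouse, so p-values measure the spread between samples, which may be technical. Liver is a mixed tissue, in which fewer cells of a type and less RNA per cell cannot be told apart.

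Promoter sequence was available from RefSeq (build GRCm38.p6, 250 bases before to 50 after the annotated start) for 48 of the 77 genes, in 53 windows. Windows were searched on both strands for AP-1 (TGANTCA), ETS (AGGAAG) and TATA box (TATAAA) letters. Capitals below mark these matches, including those that read on the other strand, and positions count from the annotated start. A match describes letters only and not a bound site. Timp1 is shown because its change was the largest among these genes. Its window held AGGAAG at -175, -99 and 41 but no TGANTCA. It also held TGAGTAA at 27, which was searched for only after this window had been read, and which 2.68% of all 32851 windows hold.
Timp1, chrX:20869916-20870215, plus strand: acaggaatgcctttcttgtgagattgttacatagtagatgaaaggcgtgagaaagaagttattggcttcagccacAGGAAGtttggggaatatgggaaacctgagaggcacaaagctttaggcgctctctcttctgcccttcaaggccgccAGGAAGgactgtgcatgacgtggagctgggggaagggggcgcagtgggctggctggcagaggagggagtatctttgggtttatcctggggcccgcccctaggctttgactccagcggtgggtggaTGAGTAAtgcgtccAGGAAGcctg
Adam19 is shown as the only one of the genes that were higher in HFD24 than in ND to hold TGANTCA, in 1 of its windows, at -131. Of the 15 genes of that direction 9 had a window.
Adam19, chr11:46055734-46056033, plus strand: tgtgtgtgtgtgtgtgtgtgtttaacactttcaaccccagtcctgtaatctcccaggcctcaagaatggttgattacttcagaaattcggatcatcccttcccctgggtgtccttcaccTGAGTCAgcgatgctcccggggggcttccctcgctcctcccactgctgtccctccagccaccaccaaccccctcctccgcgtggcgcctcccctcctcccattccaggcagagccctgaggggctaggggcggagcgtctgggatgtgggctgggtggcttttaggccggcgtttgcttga

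A run of 10 neighbouring Mmp genes on chromosome 9, with 9 of them on the array, is shown from 110 bases before to 20 after the start because most of these windows share the same motif letters. The 9 genes had 11 windows. In 7 of the 9 genes 1 window held both TGANTCA and TATAAA, a pair found in 1.54% of all windows, which is a share of windows and not of genes. These genes were Mmp13 and Mmp1a, which are collagenases, Mmp12, macrophage elastase, Mmp3 and Mmp10, which are stromelysins, Mmp20, the enamel protease, and Mmp7, matrilysin.
Mmp13, chr9:7272404-7272533, plus strand: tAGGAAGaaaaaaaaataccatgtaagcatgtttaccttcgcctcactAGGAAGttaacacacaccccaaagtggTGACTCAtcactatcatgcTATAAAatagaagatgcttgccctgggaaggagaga
Mmp12, chr9:7347264-7347393, plus strand: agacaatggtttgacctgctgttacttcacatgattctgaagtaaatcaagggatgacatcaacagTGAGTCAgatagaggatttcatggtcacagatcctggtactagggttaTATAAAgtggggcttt
Mmp3, chr9:7445712-7445841, plus strand: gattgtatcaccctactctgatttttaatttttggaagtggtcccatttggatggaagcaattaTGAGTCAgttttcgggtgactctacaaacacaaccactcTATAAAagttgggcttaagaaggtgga
Mmp1a, chr9:7464031-7464160, plus strand: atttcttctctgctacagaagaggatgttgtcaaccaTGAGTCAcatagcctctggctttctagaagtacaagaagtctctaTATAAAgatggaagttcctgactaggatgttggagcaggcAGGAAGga
Mmp10, chr9:7502232-7502361, plus strand: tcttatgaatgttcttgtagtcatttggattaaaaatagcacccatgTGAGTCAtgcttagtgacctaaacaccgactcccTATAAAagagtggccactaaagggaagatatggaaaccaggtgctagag
Mmp20, chr9:7628121-7628250, plus strand: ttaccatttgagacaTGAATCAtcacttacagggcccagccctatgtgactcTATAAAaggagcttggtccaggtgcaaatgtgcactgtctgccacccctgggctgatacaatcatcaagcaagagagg
Mmp7, chr9:7691980-7692109, plus strand: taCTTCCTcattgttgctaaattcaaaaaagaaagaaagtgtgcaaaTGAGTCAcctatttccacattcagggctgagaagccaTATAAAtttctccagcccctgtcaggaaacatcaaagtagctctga
The 2 remaining genes of the run, Mmp8, the neutrophil collagenase, and Mmp27, held no TGANTCA in their windows.
Mmp8, chr9:7558319-7558448, plus strand: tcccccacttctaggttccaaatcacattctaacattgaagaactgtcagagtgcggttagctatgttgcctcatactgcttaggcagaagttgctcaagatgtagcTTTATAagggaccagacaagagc
Mmp27, chr9:7571286-7571415, plus strand: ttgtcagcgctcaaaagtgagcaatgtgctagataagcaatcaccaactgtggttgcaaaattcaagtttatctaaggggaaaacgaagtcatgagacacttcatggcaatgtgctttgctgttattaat
Over all these gene families, TGANTCA was in 12 of 53 windows (22.6%), against 7.81% of all windows. AGGAAG was in 37.7% of them, against 35.4% of all windows, and TATAAA in 26.4%, against 13.6%. Much of this lies in the Mmp run, which has 11 of the 53 windows. The run holds 7 of the 12 genes with TGANTCA and 8 of the 14 with TATAAA.

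The first question was what the high-fat diet did over 24 weeks. In HFD24, 22 of the 77 genes passed against ND (28.6%), next to 18.3% of all genes. Of these, 15 were higher (19.5%, next to 10% of all genes) and 7 lower (9.09%, next to 8.29%). All 7 Timp and Mmp genes that passed were higher, while the Adam genes were split into 4 higher and 5 lower. The median difference was 0.02 over the 77 genes and -0.06 over all genes. The arrays of the groups did not overlap for 31 of the 77 genes, 40.3%, next to 33.6% of all genes.

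**Figure D1:**
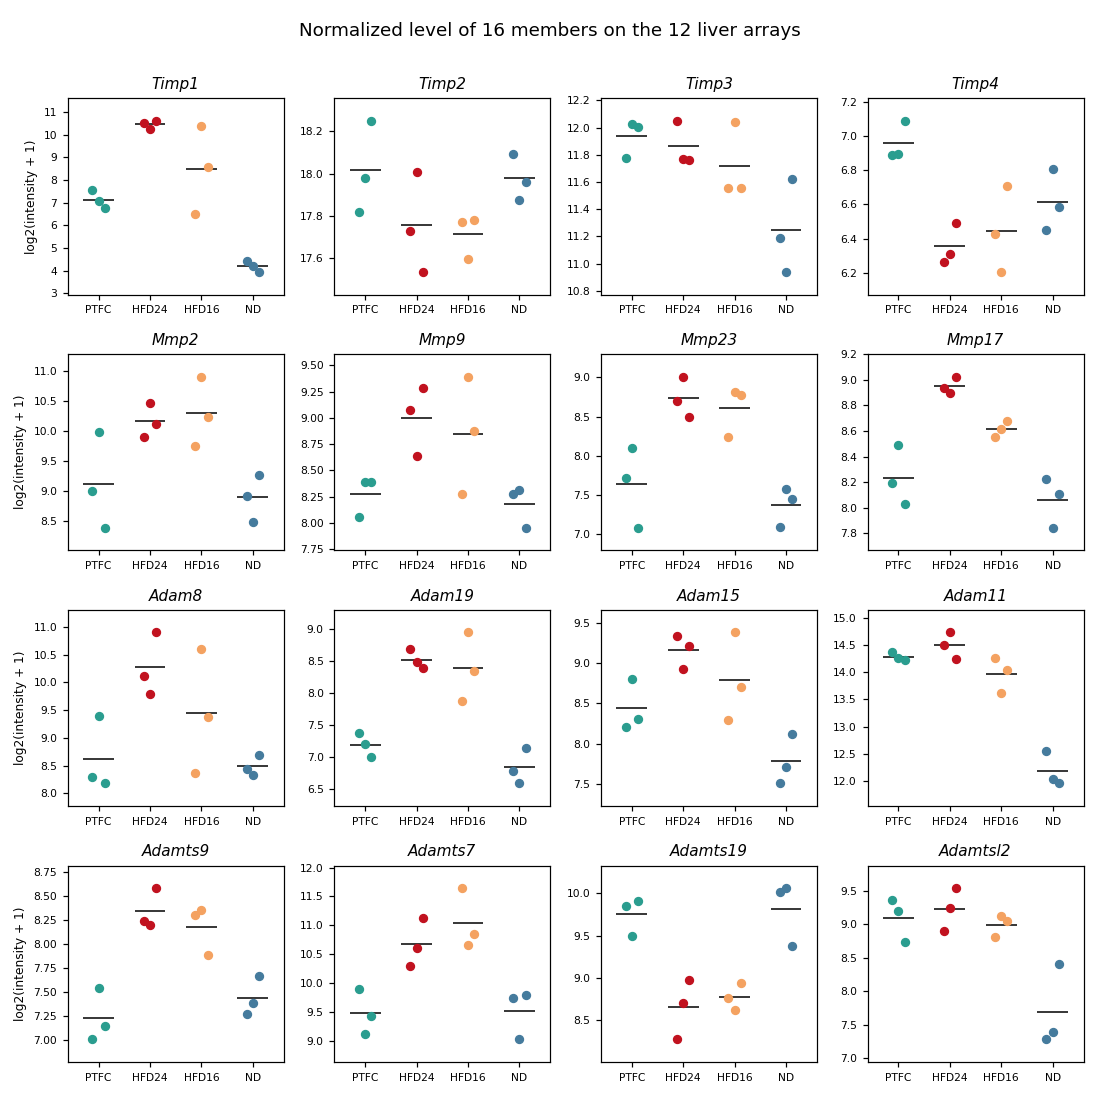
Normalized level, log2(intensity + 1), of 16 protease and inhibitor genes on the 12 liver arrays, by group from PTFC to ND; each dot is an array and each bar the mean of 3. Timp1 lay between 10.26 and 10.61 on the HFD24 arrays and between 3.94 and 4.45 on the ND arrays, while Timp2 spread over less than 1 log2 unit in all groups.

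Of the 4 inhibitors Timp1 was the 1 that passed. Timp1 had intensities of 235.7, 152.4 and 137.0 in PTFC, 1302, 1238 and 1637 in HFD24, 70.7, 1417 and 324 in HFD16 and 26.4, 22.2 and 14.8 in ND. No HFD24 array came near an ND or a PTFC array, and the HFD16 arrays alone were spread widely. It rose 76.5-fold in HFD24 against ND, by 6.26 ± 0.65 on the log2 scale (SE, adjusted p = 0.000222), with a mean log2 level of 10.46 ± 0.18 in HFD24 and 4.20 ± 0.25 in ND (SD, n = 3 each). The ND level is among those of the dimmest genes, so the fold depends on the scale: the difference was 4.85 with a pseudocount of 32 (adjusted p = 0.000314) and 4.99 with the scaling step (the spacing of each array's deposited values, larger on every ND array than elsewhere) as a covariate (adjusted p = 0.00397).

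The other inhibitors moved little and none passed in HFD24 against ND. Timp2, which also takes part in activating proMMP2, differed by -0.22 ± 0.14 (adjusted p = 0.279). Timp3, which is bound to the matrix and inhibits ADAM17 too, had 3959, 3431 and 3653 in HFD24 and 2367, 1997 and 3014 in ND. The Timp3 arrays did not overlap, and the difference of 0.61 ± 0.20 just missed the threshold (adjusted p = 0.0515). Timp4 differed by -0.26 ± 0.17 (adjusted p = 0.319) and was the dim member of the family.

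Of the 21 Mmp genes 6 rose in HFD24 against ND and none fell, next to 10% higher and 8.29% lower of all genes. Both gelatinases, which degrade basement membrane collagen and denatured collagen, were among the 6. Mmp2 had 810, 1417 and 1154 in HFD24, against 530, 398 and 552 in ND, a rise of 1.27 ± 0.37 (adjusted p = 0.0321). Mmp9 had 427, 398 and 637 in HFD24, against 352, 356 and 222 in ND, a rise of 0.82 ± 0.26 (adjusted p = 0.0431). Neither gelatinase overlapped between the groups. The Mmp9 call was kept in 9 of 21 other settings and the Mmp2 call in 15. Without HFD24 array 3 neither passed, with differences of 1.29 for Mmp2 and 0.67 for Mmp9 (adjusted p = 0.0676 and 0.135).

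A pair of membrane-anchored enzymes rose as well. Mmp17, held to the membrane by a lipid anchor, had 384, 477 and 530 in HFD24, against 340, 264 and 247 in ND. It rose by 0.89 ± 0.16 (adjusted p = 0.00268) and passed in all 21 other settings. Mmp23, a short membrane protease, had 319, 517 and 364 in HFD24, against 164, 221 and 158 in ND. It rose by 1.37 ± 0.26 (adjusted p = 0.00351) and passed in 20 of 21. The other 4 membrane types on the array, with Mmp14, the main activator of proMMP2, did not pass: Mmp14 differed by 0.14 ± 0.22 (adjusted p = 0.692).

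Within the neighbouring run the same 2 genes whose windows lack TGANTCA were the ones that passed. Mmp8 rose by 0.86 ± 0.26 (adjusted p = 0.0352), with intensities of 85.5, 77.6 and 79.5 in HFD24 and 55.7, 61.6 and 56.9 in ND. Mmp27 rose by 1.40 ± 0.27 (adjusted p = 0.00407), with 74.1, 111 and 88 in HFD24 and 48.3, 41.9 and 45.7 in ND. Both were dim, as were 8 of the 9 genes of the run, and the Mmp8 call was lost without ND array 1, ND array 2 or HFD24 array 1 (adjusted p up to 0.142). The remaining 7 genes did not pass, with differences of 0.10 ± 0.26 for Mmp13, 0.03 ± 0.20 for Mmp12, 0.31 ± 0.50 for Mmp3, 0.33 ± 0.28 for Mmp10 and 0.54 ± 0.43 for Mmp7. Mmp1a and Mmp20 lay on the other side of 0, at -0.36 ± 0.24 and -0.31 ± 0.22. Whether the letters have a part in this was not tested.

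**Figure D2:**
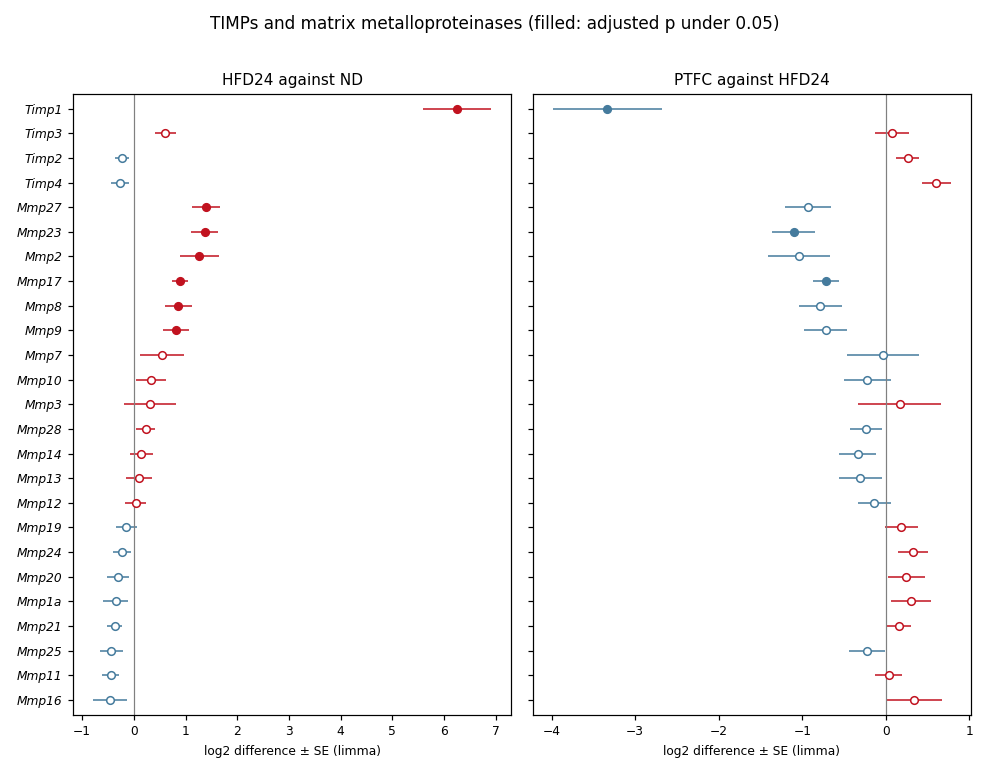
Log2 difference with its SE for the 4 Timp and 21 Mmp genes in HFD24 against ND (left) and PTFC against HFD24 (right); filled dots passed at an adjusted p under 0.05. Timp1 lies at 6.26 and -3.33, and the Mmp genes lie within about 1.5 log2 units of 0.

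Among the 9 ADAMs listed as sheddases of somatic tissues, 3 rose and 1 fell in HFD24 against ND. Over all genes 10% rose and 8.29% fell. Adam19, known for cleaving neuregulins, had 316, 362 and 340 in HFD24, against 133, 116 and 129 in ND. It rose by 1.69 ± 0.24 (adjusted p = 0.00106), and passed in all 21 other settings. Adam8, a protease of granulocytes and macrophages, had 966, 896 and 1974 in HFD24, against 393, 362 and 366 in ND, and rose by 1.78 ± 0.47 (adjusted p = 0.0204). No HFD24 array of either gene overlapped with ND. Without HFD24 array 3, the brightest, Adam8 differed by 1.46 and did not pass (adjusted p = 0.0759). Adam15 rose by 1.38 ± 0.27 (adjusted p = 0.00401), with 523, 488 and 608 in HFD24 and 214, 243 and 250 in ND. A second, dimmer Adam15 probe gave -0.40 ± 0.26, so the rise rests on 1 of 2 probes.

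The sheddases Adam10, Adam17 and Adam9 did not pass. Adam10, which cuts Notch and cadherins, differed by 0.63 ± 0.24 (adjusted p = 0.0833), and Adam17, which releases TNF and ligands of the EGF receptor, by 0.24 ± 0.16 (adjusted p = 0.331). Adam9 differed by 0.48 ± 0.20 (adjusted p = 0.105). Adam28, an ADAM of lymphocytes and epithelia, fell by 0.84 on the log2 scale (SE 0.27, adjusted p = 0.0455), with 386, 670 and 770 in HFD24 and 1267, 1539 and 677 in ND. Its call was kept in 6 of 21 other settings. Of 2 dimmer Adam28 probes, 1 gave -0.72 ± 0.20 and the other 0.39 ± 0.43.

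Adam11, a brain ADAM without catalytic activity, had the smallest adjusted p of the 77 genes in this comparison. Its intensities were 22179, 26546 and 19536 in HFD24, against 6005, 4196 and 3870 in ND, with a wide gap between the groups. It rose 4.97-fold, by 2.31 ± 0.20 (adjusted p = 7.69e-05), and passed in all 21 other settings. Adam11 had 1 probe on the array, and which transcripts this probe binds was not tested. Adam22 and Adam23, its relatives of the nervous system, differed by -0.51 ± 0.20 (adjusted p = 0.0904) and 0.36 ± 0.25 (adjusted p = 0.35).

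The ADAMs in no role list, most of them known from testis or epididymis, include 4 of the 5 Adam genes that were lower. Of these 17 genes 0 rose and 4 fell, next to 10% higher and 8.29% lower of all genes. Adam2, a sperm surface protein, had 21.9, 18 and 17.1 in HFD24, against 96.7, 67.8 and 74.2 in ND, and fell by 1.58 (SE 0.39, adjusted p = 0.0152). Adam29 fell by 0.81, Adam7 by 0.67 and Adam1a by 0.57 (adjusted p = 0.0281, 0.0212 and 0.0257). Each of the 3 had arrays that did not overlap, and each lost its call in 5 to 8 of the 21 other settings. Several of these genes have close copies in the genome, and which transcripts the probes bind was not tested.

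**Figure D3:**
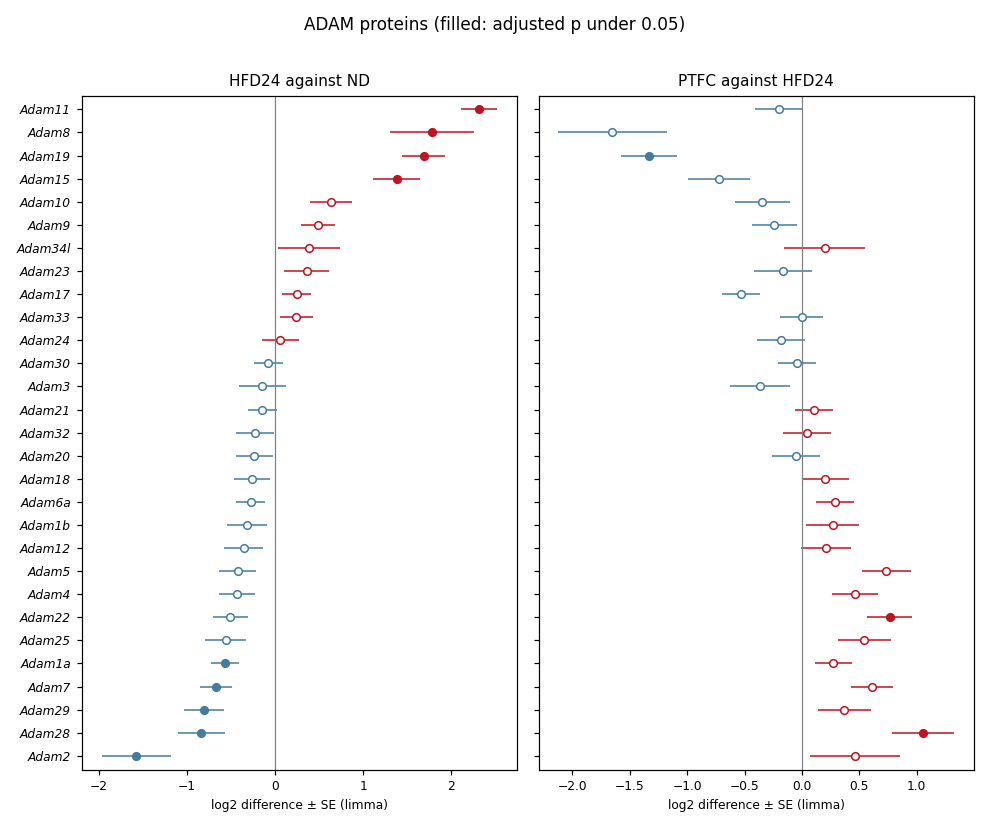
Log2 difference with its SE for the 29 Adam genes in HFD24 against ND (left) and PTFC against HFD24 (right); filled dots passed at an adjusted p under 0.05. In the left panel Adam11, Adam8, Adam19 and Adam15 lie above 1, and Adam2 lies at -1.58.

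Of the 18 ADAMTS genes 3 rose and 1 fell in HFD24 against ND, next to 10% higher and 8.29% lower of all genes. Adamts9, which cleaves versican and aggrecan, had 220, 294 and 386 in HFD24, against 183, 196 and 182 in ND, a rise of 0.90 ± 0.20 (adjusted p = 0.00761). Adamts5, the main aggrecanase of mouse cartilage, rose by 0.89 ± 0.26 (adjusted p = 0.0313), with 60.8, 68.6 and 113 in HFD24 and 60.1, 60.4 and 47 in ND. The deposited intensities of Adamts5 lie close together and the gap appears on the normalized scale. Without normalization the call was not made. Adamts7, which cleaves cartilage oligomeric matrix protein, rose by 1.16 ± 0.31 (adjusted p = 0.0208), with 1122, 1585 and 2325 in HFD24 and 895, 573 and 789 in ND.

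Adamts19 ran the other way. Its intensities were 227, 417 and 512 in HFD24 and 1075, 1110 and 594 in ND, and it fell by 1.17 (SE 0.23, adjusted p = 0.00411) with no overlap of arrays. The procollagen N-proteinases Adamts3 and Adamts14, which trim fibrillar procollagens, differed by -0.04 ± 0.19 and 0.02 ± 0.20 and did not pass. Adamts1 and Adamts4, which cleave proteoglycans, differed by 0.18 ± 0.26 and -0.24 ± 0.17. Adamts13, which cuts von Willebrand factor and is known to be made in liver by stellate cells, differed by 0.17 ± 0.26 (adjusted p = 0.689).

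Adamtsl2, which binds fibrillin and the latent TGF-beta complex, had 374, 608 and 770 in HFD24, against 186, 197 and 302 in ND. It rose 2.89-fold, by 1.53 ± 0.28 (adjusted p = 0.00291), and passed in 20 of 21 other settings. Adamtsl3 fell by 0.74 (SE 0.23, adjusted p = 0.0425) and kept its call in 8 of 21. The other 3 ADAMTS-like genes did not pass.

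Of the 22 calls in HFD24 against ND, 10 held whichever array was left out: Timp1, Mmp17, Mmp23, Mmp27, Adam11, Adam15, Adam19, Adamts9, Adamts19 and Adamtsl2. The other 12 were lost at least once. Without ND array 1 or without ND array 2, 11 genes passed (next to 9.04% and 9.92% of all genes), without HFD24 array 3, 12 genes (13.9%), and without HFD24 array 1, 13 genes (10.4%). With the scaling step as a covariate, 5 genes passed (next to 5.69% of all genes): Timp1, Mmp17, Adam11 and Adam19 of the 22, and Adam9. Adamts7 differed by 0.92 without ND array 2 (adjusted p = 0.0953) and by 0.94 without HFD24 array 3 (adjusted p = 0.0787), and Adam2 by -1.50 without ND array 1 (adjusted p = 0.0593).

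**Figure D4:**
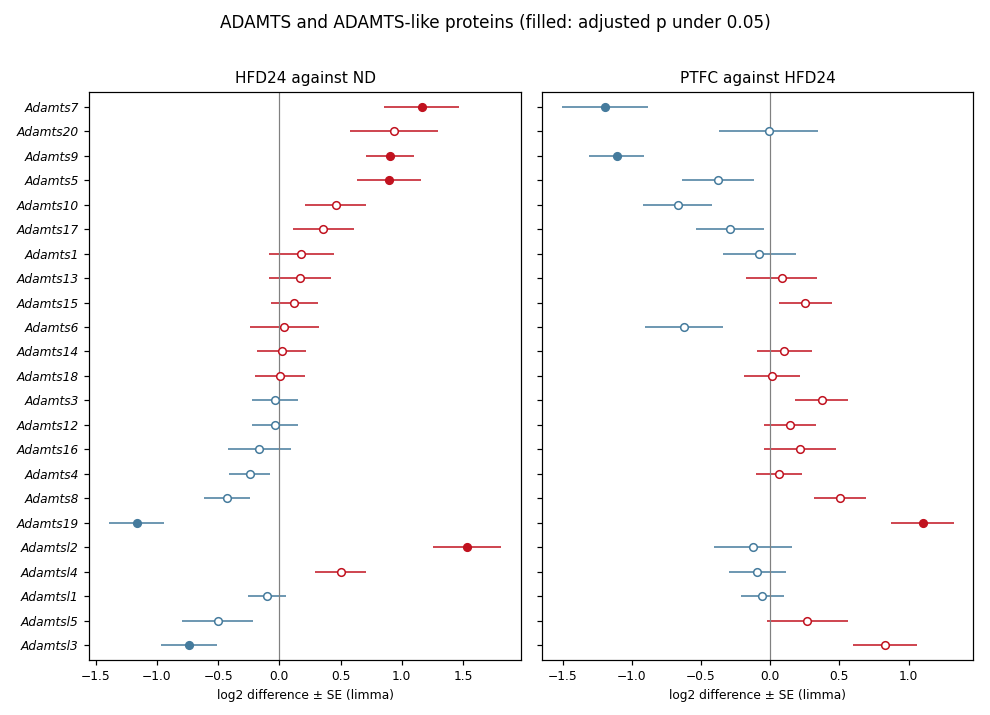
Log2 difference with its SE for the 18 Adamts and 5 Adamtsl genes in HFD24 against ND (left) and PTFC against HFD24 (right); filled dots passed at an adjusted p under 0.05. Adamts7 and Adamts9 lie at 1.16 and 0.90 on the left and at -1.20 and -1.11 on the right, and Adamts19 lies at -1.17 and 1.10.

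The second question was what differed when the extract was added to the diet. In PTFC, 9 of the 77 genes passed against HFD24 (11.7%, next to 5.98% of all genes), with 3 higher (3.9%, next to 2.94%) and 6 lower (7.79%, next to 3.04%). The HFD24 arrays also serve in the comparison with ND, so the values of both comparisons are not independent. The arrays did not overlap for 29 of the 77 genes, 37.7%, next to 31.1% of all genes. The split of directions hung on the scaling. On the authors' own scale, where the median of all genes lay 0.24 higher in PTFC than in HFD24, 10 genes passed, 9 of them higher and 1 lower, and 4 passed on both scales. All genes leaned alike there, with 8.67% passing and 1495 of these 1654 higher. The 4 genes that passed on both scales were Timp1, Adam28, Adam22 and Adamts19.

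Timp1 fell 10.1-fold in PTFC against HFD24, by 3.33 on the log2 scale (SE 0.65, adjusted p = 0.0213). Its mean log2 level was 7.12 ± 0.39 in PTFC and 10.46 ± 0.18 in HFD24 (SD, n = 3 each), and no arrays overlapped. The difference was between -3.57 and -3.01 in 21 other settings, but the call was lost without HFD24 array 1 (adjusted p = 0.0712), HFD24 array 2 (0.0516) or PTFC array 3 (0.114). Timp4 had 151.7, 135 and 173 in PTFC, against 49.4, 78.7 and 88 in HFD24. Its arrays did not overlap, and its difference of 0.60 ± 0.17 just missed the threshold (adjusted p = 0.0569). Timp2 and Timp3 differed by 0.26 ± 0.14 and 0.07 ± 0.20 and did not pass.

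Both membrane-anchored Mmp genes named above were lower with the extract. Mmp23 had 263, 302 and 172 in PTFC, against 319, 517 and 364 in HFD24, and fell by 1.10 (SE 0.26, adjusted p = 0.0318). Mmp17 had 358, 396 and 321 in PTFC, against 384, 477 and 530 in HFD24, and fell by 0.72 (SE 0.16, adjusted p = 0.0282). The PTFC and HFD24 arrays of the 2 genes did not overlap on the normalized scale. No other Mmp gene passed. Mmp2 had 592, 1065 and 407 in PTFC, with 1 array inside the HFD24 range of 810 to 1417, and differed by -1.04 ± 0.37 (adjusted p = 0.108). Mmp9 differed by -0.72 ± 0.26 (adjusted p = 0.108), Mmp8 by -0.78 ± 0.26 (adjusted p = 0.087) and Mmp27 by -0.93 ± 0.27 (adjusted p = 0.0595).

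Adam19 had 211, 165 and 162 in PTFC, against 316, 362 and 340 in HFD24. It fell by 1.34 (SE 0.24, adjusted p = 0.0182), with every PTFC array under every HFD24 array. Adam8 had 382, 724 and 354 in PTFC, against 966, 896 and 1974 in HFD24, and its difference of -1.65 ± 0.47 did not pass (adjusted p = 0.0563). Adam15 differed by -0.72 ± 0.27 (adjusted p = 0.117), and Adam17 by -0.53 ± 0.16 (adjusted p = 0.0718). Adam11 did not pass, with 21192, 21107 and 19628 in PTFC against 22179, 26546 and 19536 in HFD24, a difference of -0.20 ± 0.20 (adjusted p = 0.584).

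The 2 Adam genes that rose in PTFC against HFD24 were Adam28 and Adam22. Adam28 had 1298, 1194 and 1737 in PTFC, against 386, 670 and 770 in HFD24, a rise of 1.05 ± 0.27 (adjusted p = 0.0404). Of its 2 dimmer probes, 1 gave 0.59 ± 0.20 and the other -0.14 ± 0.43. Adam22, a synaptic receptor without catalytic activity, had 1882, 2001 and 2748 in PTFC, against 988, 1289 and 1315 in HFD24, a rise of 0.76 ± 0.20 (adjusted p = 0.0423). The 2 dimmer probes of Adam22 gave -0.31 ± 0.21 and -0.01 ± 0.87, and the call ended when the probes were averaged.

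Adamts9 had 163, 208 and 178 in PTFC, against 220, 294 and 386 in HFD24, and fell by 1.11 (SE 0.20, adjusted p = 0.0179). Adamts7 had 1062, 603 and 800 in PTFC, against 1122, 1585 and 2325 in HFD24, and fell 2.29-fold, by 1.20 (SE 0.31, adjusted p = 0.0421). Adamts19 had 1035, 778 and 1073 in PTFC, against 227, 417 and 512 in HFD24, and rose by 1.10 ± 0.23 (adjusted p = 0.0232). For all 3 the PTFC and HFD24 arrays were apart. Adamtsl2 had 753, 640 and 511 in PTFC, against 374, 608 and 770 in HFD24, arrays that overlapped, with a difference of -0.12 ± 0.28 (adjusted p = 0.831). No ADAMTS-like gene passed, and Adamtsl3 came nearest with 0.83 ± 0.23 (adjusted p = 0.0521).

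Single arrays decided many of these calls, and none of the 9 was kept with every array left out in turn. Without HFD24 array 1 or without PTFC array 3, 0 of the 77 genes passed the limma test, next to 0.183% and 0.0576% of all genes. Without HFD24 array 2, 2 genes passed (next to 1.21% of all genes), without PTFC array 1, 3 genes (2.45%), and without HFD24 array 3, 5 genes (2.31%).

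The third question was how far the extract group stood from normal diet. Against ND, 3 of the 77 genes passed in PTFC (3.9%, next to 2.33% of all genes), and all 3 were higher (next to 1.04% of all genes). Adam11 rose by 2.11 ± 0.20 (adjusted p = 0.000348), in all 21 other settings too, and no PTFC array came near the ND range of 3870 to 6005. Adamtsl2 rose by 1.41 ± 0.28 (adjusted p = 0.0233), kept in 15 of 21. Timp1 rose 7.58-fold, by 2.92 ± 0.65 (adjusted p = 0.0365), though its call was kept in only 8 of 21 and fell out whichever ND or PTFC array was left out (largest adjusted p = 0.119). Its PTFC and ND arrays did not overlap, but the difference was 1.79 with a pseudocount of 32 (adjusted p = 0.121) and 1.54 with the scaling step as a covariate (adjusted p = 0.369). Adamts19 differed by -0.06 ± 0.23 (adjusted p = 0.938) and Adam19 by 0.35 ± 0.24 (adjusted p = 0.523). A p over the threshold does not show equal levels.

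The last question was what 16 weeks on the diet had done. In HFD16, 17 of the 77 genes passed against ND (22.1%, next to 18.1% of all genes), 11 higher (14.3%, next to 10%) and 6 lower (7.79%, next to 8.11%). On the authors' scale, where the median of all genes was -0.22, 7 were higher and 8 lower, next to 1201 higher among the 3471 of all genes that passed there. With the replicate number as a block 14 passed (next to 14.5% of all genes), without Mmp17, Adam7 and Adamtsl5, and with the scaling step as a covariate Adam11 alone passed (next to 1.15%). Timp1 rose 19.5-fold, by 4.29 ± 0.65 (adjusted p = 0.0021), across arrays that spread from 70.7 to 1417. That difference was 3.04 with a pseudocount of 32 (adjusted p = 0.00498), and 2.71 with the scaling step as a covariate, where it did not pass (adjusted p = 0.0939). Adam11 rose by 1.79 ± 0.20 (adjusted p = 0.000556), Adam19 by 1.56 ± 0.24 (adjusted p = 0.00229) and Adamts7 by 1.53 ± 0.31 (adjusted p = 0.00706). Mmp2 rose by 1.40 ± 0.37 (adjusted p = 0.0218) and Mmp23 by 1.25 ± 0.26 (adjusted p = 0.00774). Adam2 fell by 1.72, Adam29 by 1.37, Adamts19 by 1.04 and Adamtsl5 by 1.00 (adjusted p = 0.0117, 0.00319, 0.00924 and 0.0331). The Adamtsl5 call was lost without ND array 1, ND array 2, HFD16 array 2 or HFD16 array 3 (adjusted p up to 0.132), and a dimmer Adamtsl5 probe gave -0.12 ± 0.21. The Mmp2 call was lost without the same 4 arrays. Mmp11, stromelysin-3, fell by 0.71 (SE 0.16, adjusted p = 0.0115), with 308, 396 and 382 in HFD16 and 744, 706 and 564 in ND.

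Between 24 and 16 weeks of the diet no gene of these families passed the limma test. Of all genes, 0.0367% passed. Timp1 differed by 1.97 ± 0.65 between HFD24 and HFD16 (adjusted p = 0.36), and the arrays overlapped. Without HFD16 array 2 its difference was 2.91 and passed (adjusted p = 0.0367), the only one of these genes to do so. Mmp27 differed by 0.94 ± 0.27 (adjusted p = 0.299) and Adam1a by -0.66 ± 0.16 (adjusted p = 0.256), each without overlap.

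The HFD16 arrays differed among themselves. Of the 15 genes that were higher in HFD24 than in ND, 12 were highest on HFD16 array 2 among the 3 HFD16 arrays, and 12 were lowest on HFD16 array 1. The same count was not made over all genes, so it does not set these families apart. The scaling step was 1.04, 0.675 and 1.05 on HFD16 arrays 1, 2 and 3, and 0.675 was the smallest of all arrays. Adam8 had 276, 1628 and 590 on these arrays, Mmp9 255, 687 and 410, and Adam15 259, 685 and 363. The mean log2 level of 12 macrophage markers was 10.52, 13.05 and 12.16 on the same 3 arrays, and that of 13 stellate cell and fibroblast markers was 9.39, 10.26 and 9.87. The part of cell makeup in the protease values was not tested. Without HFD16 array 2, 10 genes passed against ND in place of 17, next to 10.1% of all genes in place of 18.1%.

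Markers of other liver cells moved with the diet in the same arrays. For the counts below, 10% of all genes rose and 8.29% fell in HFD24 against ND. All 12 measured macrophage markers rose in HFD24 against ND, with a mean log2 level of 12.63 to 13.12 in HFD24 and 9.34 to 10.29 in ND. It was 11.50 to 12.11 in PTFC. All 12 were lower in PTFC than in HFD24, with differences of -1.84 to -0.30 and a median of -1.16. For 9 of the 12 every PTFC array was under every HFD24 array, next to 2897 of all 19084 genes. Only 1 of the 12 passed there, Cx3cr1, which fell by 1.75. Of 13 stellate cell and fibroblast markers 10 rose and 1 fell in HFD24 against ND, with a mean of 9.91 to 10.04 in HFD24 and 8.36 to 8.78 in ND, and 3 fell in PTFC against HFD24. Of 10 neutrophil markers 4 rose and 1 fell, and 3 of the 10 were among the dimmest genes. Their mean was 7.99 to 8.22 in HFD24 and 7.37 to 7.56 in ND. None of the macrophage markers was among the dimmest genes. Endothelial markers rose in 5 of 9 cases and T and NK cell markers in 4 of 10, with none lower, while 2 of 6 cholangiocyte markers fell. Of 5 B cell markers 1 rose and 2 fell. In PTFC against HFD24, 2 T and NK cell markers, 1 neutrophil and 1 B cell marker fell. There 1 B cell and 1 cholangiocyte marker rose, and no endothelial marker passed. Over all genes 2.94% were higher and 3.04% lower in that comparison. The part of these cell types in the changes of Timp1, Mmp9 or Adam8 was not tested.

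Genes that act with the proteases were read from lists. Among 23 other regulators of metalloproteinase activity 10 rose in HFD24 against ND and none fell, with a median difference of 0.40. Over all genes 10% rose and 8.29% fell, with a median of -0.06. Lcn2, a lipocalin whose human form is known to bind MMP9, rose by 5.94 ± 0.61 (adjusted p = 0.000208). It fell by 2.39 in PTFC against HFD24 (SE 0.61, adjusted p = 0.0409). Slpi, a leukocyte protease inhibitor, rose by 4.56 ± 0.52 (adjusted p = 0.000309) and fell by 2.51 in PTFC (adjusted p = 0.0233). Thbs1, thrombospondin 1, rose by 2.37 ± 0.35 (adjusted p = 0.00118) and fell by 1.42 in PTFC (adjusted p = 0.0365). These were the 3 of the 23 that passed in PTFC against HFD24, next to 5.98% of all genes. Those 3 calls were lost in 9 of 21 other settings for Lcn2, 4 of 21 for Slpi and 8 of 20 for Thbs1 (adjusted p up to 0.196), while their calls in HFD24 against ND held in all. Reck, a membrane-bound MMP inhibitor, rose by 0.78 ± 0.17 in HFD24 against ND (adjusted p = 0.00665).

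In the plasminogen system, which produces plasmin and can activate proMMPs, 7 of 9 listed genes were measured. Of these 7, 2 rose and 1 fell in HFD24 against ND, with a median difference of -0.02. Over all genes 10% rose and 8.29% fell, with a median of -0.06. The lowest difference of the 7, -2.40, did not pass. Plgrkt rose by 1.29 in HFD24 against ND (adjusted p = 0.00989), a call kept in 19 of 21 other settings. In PTFC against HFD24 Plgrkt differed by -0.79 and did not pass (adjusted p = 0.121). Plaur, the urokinase receptor, had 230, 259 and 187 in PTFC, 506, 642 and 625 in HFD24 and 116, 121 and 116 in ND. It rose by 2.56 ± 0.26 in HFD24 against ND (adjusted p = 0.000208) and fell by 1.76 in PTFC against HFD24 (adjusted p = 0.00995). Plau, urokinase itself, had 594, 511 and 510 in PTFC, 203, 236 and 232 in HFD24 and 517, 563 and 234 in ND. It fell by 0.68 in HFD24 against ND (adjusted p = 0.0488) and rose by 0.91 ± 0.22 in PTFC against HFD24 (adjusted p = 0.0349). The first of these Plau calls was kept in only 5 of 21 other settings (adjusted p up to 0.216) and the second in 13 of 21 (up to 0.126). On the deposited scale the third ND array of Plau lay level with HFD24, and the HFD24 and ND arrays overlapped on the normalized scale too.

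Of 19 measured matrix substrates 6 rose in HFD24 against ND and none fell, with a median difference of 0.69. Over all genes 10% rose and 8.29% fell, with a median of -0.06. Lamb1, a laminin chain, rose by 1.40 ± 0.19, the proteoglycan Bgn by 1.35 ± 0.21 and the basement membrane collagen Col4a1 by 1.57 ± 0.25 (adjusted p = 0.000717, 0.00141 and 0.00158). In PTFC against HFD24 only Hspg2, perlecan, passed, and it fell by 1.00 (SE 0.23, adjusted p = 0.029). The Hspg2 call was kept in 15 of 21 other settings. Against ND, Lamb1, Bgn and Col4a1 were higher in PTFC too, by 0.87, 1.16 and 1.13, calls kept in 13, 17 and 12 of 21 other settings. Of 23 measured cell surface substrates of ADAMs 9 rose in HFD24 against ND and none fell, next to the same shares of all genes. Il1r2, a decoy receptor for interleukin-1, rose by 1.94 ± 0.22 (adjusted p = 0.000296) and App, the amyloid precursor, by 1.19 ± 0.16 (adjusted p = 0.000753). Cdh5 rose by 1.25 (adjusted p = 0.00186). Il1r2 was the only one of the 23 that passed in PTFC against HFD24, and fell by 1.58 (SE 0.22, adjusted p = 0.00804). The lists were chosen with results of these arrays known and their counts are a description.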

How the data were processed

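Total liver RNA was prepared with Trizol, amplified and Cy5-labelled, per the labels' protocols. The authors deposited linear intensity values for 26423 probes on 12 arrays; their background subtraction and scaling are not given in the sources used. Of 317076 such values, 291 were below 0 and 133 were 0. Each array's values under 5000 were multiples (tolerance 0.02) of its own step, from 0.675 to 1.46, averaging 1.31 ± 0.133 in ND and 0.921 to 0.976 elsewhere.

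Values below 0 were set to 0, and log2(intensity + 1) was quantile normalized over all probes. The platform table gave 21876 probes 1 symbol, and 4547 stayed unnamed. The brightest probe per gene was kept, which mattered for the 9 of 77 genes with several probes. All 77 genes matched RefSeq by gene ID. Group means were fitted to all 12 arrays in R 4.3.3 with limma 3.58.1 (eBayes with a trend), two-sided and without a block, after a check of the code on simulated data. In 18 pairs of same-numbered arrays, residuals correlated at -0.287 to 0.165 and 4 passed 0.1. All 3 pairs of HFD16 and ND did (0.105 to 0.145), so the block, fitted over all 12 arrays, is given beside that comparison. In no other pair of groups did all pairs pass. Alternatives were another pseudocount (32), the authors' scale, median centring, dim genes left out, probes averaged, only the arrays compared, a replicate block, the scaling step as a covariate, no trend, and each array left out.

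Genes named with values were taken from the Timp genes and the largest passing differences without overlap. The latter were up to 8 each way in HFD24 against ND, 6 in PTFC against HFD24 and 4 elsewhere. The 2 of smallest p in each role list and 3 in each pathway list were also eligible. Some genes of this rule are not given, among them Mmp21, Mmp25, Bcan, Icam1 and Vcam1. Others were chosen after their values were seen. Levels of different probes were not compared. The genes and lists were chosen with earlier results of these data known. For arrays, their number limits the precision. Protein sequences were not used here.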

Additional observations from a re-analysis of the deposited data

How the results depend on the processing

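Leaving out each array in turn gave 11 to 29 passing genes of the 77 in HFD24 against ND (22 with all arrays), 0 to 14 in PTFC against HFD24 (9), 9 to 24 in HFD16 against ND (17), 0 to 1 in HFD24 against HFD16 (0) and 1 to 3 in PTFC against ND (3), next to 9.04 to 25.9%, 0.0576 to 10.4%, 6.99 to 23.6%, 0.0157 to 0.0524% and 0.304 to 3.41% of all genes. The scaling step as a covariate, which lies higher in ND than in the other groups, gave 5 in HFD24 against ND (next to 5.69% of all genes), 15 in PTFC against HFD24 (8.68%), 1 in HFD16 against ND (1.15%) and 1 in PTFC against ND (0.283%). Median centring gave 14 in PTFC against HFD24 (8.45%). The replicate block gave 17 in HFD24 against ND (14.8%), 5 in PTFC against HFD24 (1.76%) and 14 in HFD16 against ND (14.5%). Some genes that did not pass changed sign. With the scaling step, Timp2 was at 0.015 in HFD24 against ND, 0.031 in HFD16 against ND and -0.0157 in HFD24 against HFD16, and Mmp7 at -0.098, Adamts3 at 0.056, Adamts14 at -0.33 and Adam3 at 0.27 in HFD24 against ND. On the authors' scale Adamts14 was at -0.19, Adam34l at -0.020 and Mmp10 at -0.072 in HFD24 against ND. With median centring Timp3 was at -0.23 in PTFC against HFD24, Timp2 at -0.12 in PTFC against ND and Mmp19 at 0.0059 in HFD24 against ND. With 1 array left out, Timp2 ran from -0.082 to 0.15 and Timp4 from -0.21 to 0.038 in HFD24 against HFD16, and Timp2 from -0.079 to 0.13 in PTFC against ND. In HFD24 against ND such ranges were -0.23 to 0.12 for Adamts3, -0.18 to 0.13 for Adamts14, -0.11 to 0.31 for Mmp14 and -0.31 to 0.051 for Mmp19. The cause was not tested.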

Other observations

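Probes of 1 gene did not always move together, and in a few genes the dimmer probe differed more. Adam33, an ADAM of smooth muscle and mesenchymal cells, differed by 0.24 ± 0.19 in HFD24 against ND and -0.0034 ± 0.19 in PTFC against HFD24 by its brightest probe. A dimmer Adam33 probe gave 0.86 ± 0.29 in HFD24 against ND (limma, unadjusted p = 0.0113) and -1.07 ± 0.29 in PTFC against HFD24 (unadjusted p = 0.00294). Adamts20, a versican-cleaving protease, differed by 0.94 ± 0.36 in HFD24 against ND by its brightest probe, while its other 2 probes gave -0.45 ± 0.24 and -0.73 ± 0.27. Those 2 probes gave 0.37 ± 0.24 and 0.67 ± 0.27 in PTFC against HFD24. Which transcripts each probe binds was not tested.

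Neighbouring genes outside the Mmp run were set side by side in HFD24 against ND. Adamts5 rose by 0.89 ± 0.26 next to 0.18 ± 0.26 for Adamts1, and Adam1a fell by 0.57 next to -0.32 ± 0.23 for Adam1b. Adam24, Adam25 and Adam20 were at 0.06 ± 0.21, -0.56 ± 0.23 and -0.24 ± 0.21, and Adamts15 and Adamts8 at 0.12 ± 0.19 and -0.43 ± 0.19, and none of these 5 passed. Whether neighbours differed from each other was not tested. None of the 5 genes of the run Adam18, Adam3, Adam5, Adam32 and Adam9 passed in HFD24 against ND. In PTFC against HFD24 Adam5 came nearest, with 0.74 ± 0.21 (adjusted p = 0.0571) and arrays that did not overlap.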
